A study of Mus musculus with 6 samples.

Results

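The genes described here encode enzymes that remove phosphates from inositol phosphates and phosphoinositides: Inpp5a, Inpp5b, Inpp5d, Inpp5e, Inpp5k, Inppl1, Inpp4a and Inpp4b. They were found by gene symbol, and for each gene the probe set annotated with that symbol alone and with the highest mean over all arrays was taken. Of the 8 genes, 6 had such a probe set, out of 22180 genes with one. Inpp5b and Inpp5e were represented by probe sets that also carry another gene's symbol, so no value is attributed to them. Probe sets were chosen by their mean level over the 6 arrays, and rows in which any value carries more digits than the rest of the table were marked, here called rows with extra digits. The family was proposed when the listed difference of Inpp5a was already known, so that difference is a description and supports nothing by itself.

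Adipose RNA from mouse offspring aged 32 weeks was measured on 6 arrays, with 1 biotin-labelled total RNA sample each. In the chromium restriction group (3 arrays) the dams had received a chromium-restricted diet, and in the control group (3 arrays) a control diet. The labels do not state the fat depot, the sex or strain, the composition of either diet, or whether each sample is a different animal or litter, so the p-values below cover the spread among these samples only. Values are given as log2 units, the scale inferred from their range; array medians were between 5.44 and 5.57. Levels of different probe sets are not compared, because the probes of different genes differ in brightness. In such bulk tissue fewer cells of a type and less RNA per cell cannot be told apart.

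The mean of 8 adipocyte markers was 11.75, 11.89 and 11.91 log2 units in chromium restriction replicates 1, 2 and 3, and 12.10, 12.13 and 12.23 in control replicates 1, 2 and 3. It was thus lower on every chromium restriction array. All 8 markers had a negative difference, from -1.22 for Adipoq to -0.012 for Lep. Of all 22180 genes 12604 had one too. Lep, Fabp4, Lpl, Lipe, Cidec and Plin1 overlapped between groups. Pnpla2, in a row without extra digits, was lower without overlap, as were 6.06% of all genes. It was at 12.00 to 12.35 against 12.52 to 12.63, a log2 difference of -0.35 (adjusted p = 0.760 in limma). In limma 1 of the 8 passed, Adipoq (adjusted p = 0.00495), which lies in a row with extra digits; without it the mean was 11.91 to 12.10 against 12.15 to 12.30, still without overlap. Markers of other tissues differed between arrays of the same group. On chromium restriction replicates 1 and 3 a set of 7 liver genes averaged 11.33 and 10.90, against 6.55 on replicate 2 and 6.56 to 6.94 in the controls. The mean of 7 intestinal genes was 6.55 in chromium restriction replicate 2 and 5.20 to 5.34 on the other arrays. The mean of 7 brown fat genes was 8.32 and 6.63 in control replicates 1 and 3, and 5.54 to 5.80 on the other arrays. The part of these transcripts in the differences below was not tested beyond the values given beside each result.

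Phosphoinositides are membrane lipids whose inositol ring is phosphorylated and dephosphorylated at defined positions. Insulin activates phosphoinositide 3-kinase, which makes the trisphosphate lipid PIP3; PIP3 brings the kinases Pdpk1 and Akt to the membrane, and in adipocytes this leads to glucose uptake and the restraint of lipolysis. The 5-phosphatases Inpp5d, Inppl1 and Inpp5k convert PIP3 to a bisphosphate, and the 4-phosphatases Inpp4a and Inpp4b remove a further phosphate from that product. Inpp5a works on soluble inositol trisphosphate, the messenger that releases calcium from the endoplasmic reticulum.

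Among the 6 measured genes, Inpp5a was listed far higher in the chromium restriction group, Inpp5k was lower on all 3 chromium restriction arrays without passing the test, and Inpp5d, Inpp4a and Inpp4b had their highest value on the same single array. In limma, 1 of the 6 passed an adjusted p of 0.05, against 0.194% of all genes tested (43 of 22180). The 1 was Inpp5a, which lies in a row with extra digits. Of the 52 genes in such rows 40 were called, and of the 22128 other genes 3 were, so its call is one of many in these rows. Of the 6 genes 4 had a positive and 2 a negative difference, with a median of 0.16 log2 units, against a median of -0.018 over all genes. The groups did not overlap for 2 of the 6, Inpp5a and Inpp5k, against 9.60% of all genes. Inpp5a was the higher one, as were 3.53% of all genes, and Inpp5k the lower.

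**Figure D1:**
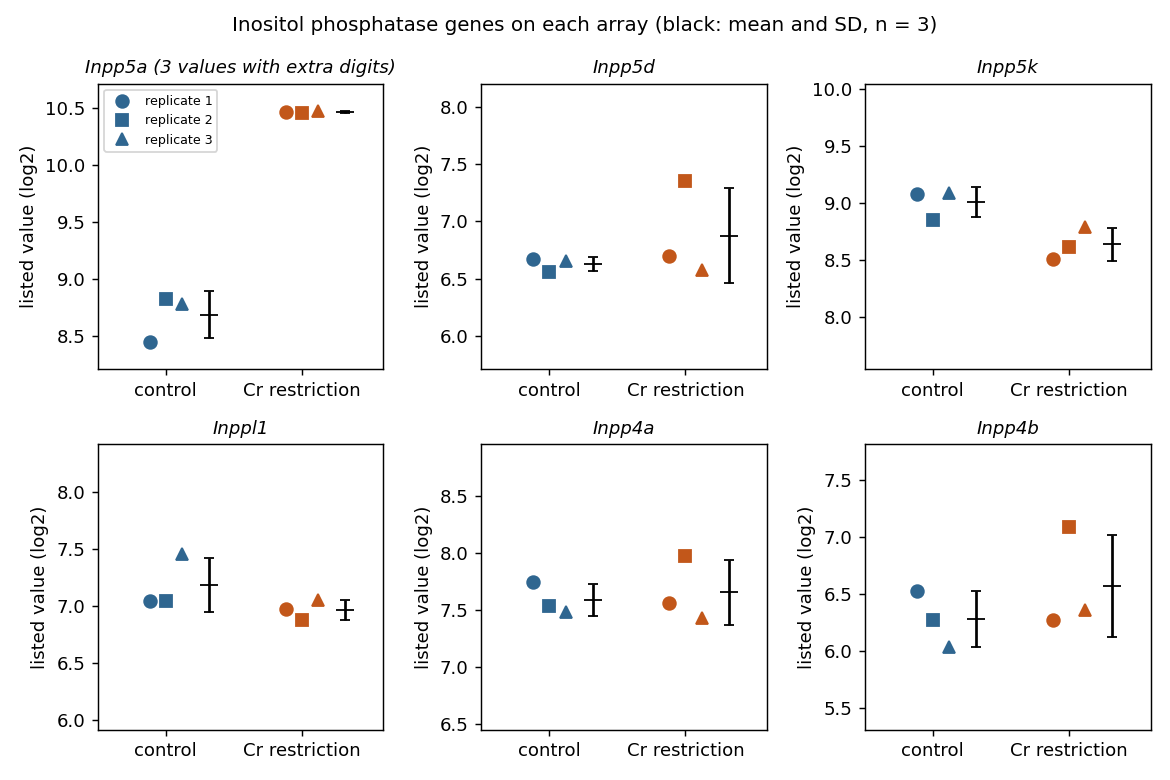
Listed log2 value of each measured gene on each array, with controls on the left and chromium restriction (Cr restriction) on the right of each panel, the marker shape giving the replicate number and the black bar the mean and SD (n = 3). All panels span the same number of log2 units; the Inpp5a groups are 1.62 units apart, while replicate 2 of the chromium restriction group is highest for Inpp5d, Inpp4a and Inpp4b.

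Inpp5a encodes the type I enzyme that ends inositol trisphosphate signals by removing a phosphate from the soluble messenger. The deposited table lists it at 10.46174374, 10.45323929 and 10.47595829 in chromium restriction replicates 1, 2 and 3. In control replicates 1, 2 and 3 it is listed at 8.450258, 8.828832 and 8.783623. All 3 chromium restriction values are thus above all 3 control values, and they are written with 8 decimals where the controls have 6. The 202758 values of the table nearly all have the fewest decimals that identify a single-precision number, and the 3 chromium restriction values of Inpp5a are among the 183 that have more. The sources used here do not say how those values arose.

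As listed, the group means of Inpp5a were 10.46 ± 0.011 and 8.69 ± 0.21 (log2, SD, n = 3 per group), a 3.42-fold higher value in the chromium restriction group. The log2 difference was 1.78 ± 0.11 (SE), with an adjusted p of 0.00358 in limma. It lay above every control in 3 of 3 arrays, with a gap of 1.62 log2 units between the groups. Leaving out both arrays rich in liver transcripts, which leaves 1 array against 3 and assumes that the lone array varies like the controls, kept the difference at 1.77 but ended the call (adjusted p = 0.123 in limma). The call rests wholly on values written with extra digits, since no chromium restriction value of Inpp5a is written like the rest of the table.

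The 3 chromium restriction values of Inpp5a also lay close together. They spanned 0.023 log2 units. The 3 control values spanned 0.38, which is 16.7 times as much. Of all genes 1.27% had an SD among the chromium restriction arrays as small as or smaller than that of Inpp5a (281 of 22180), while its control SD was as large as or larger than that of 77.0% of genes. Over the 52 genes in rows with extra digits the median SD was 0.074 among chromium restriction arrays and 0.066 among controls, against 0.14 and 0.13 for the other genes. The array holds no second probe set annotated with Inpp5a alone that could be set beside this one.

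**Figure D2:**
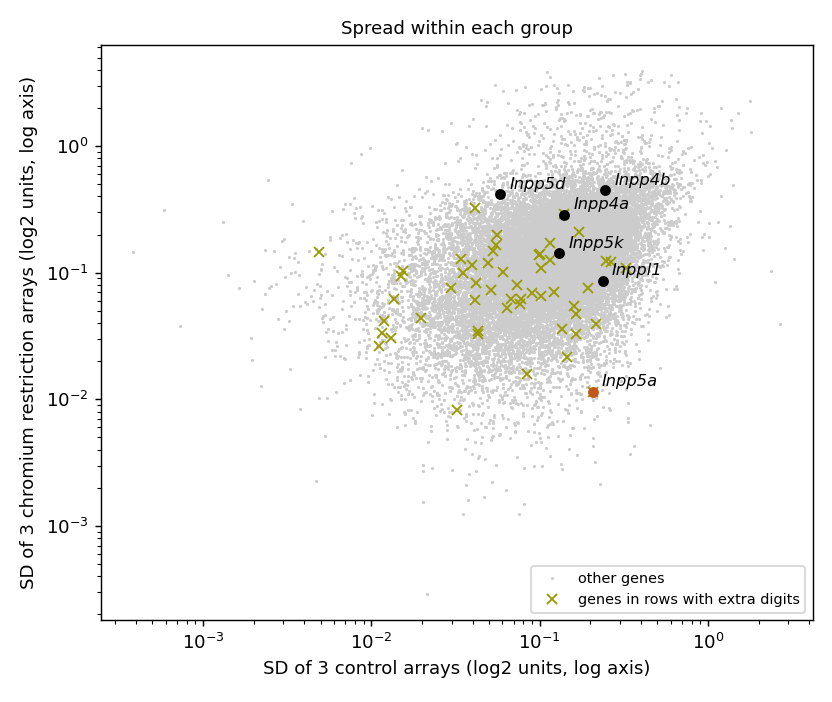
SD among the 3 chromium restriction arrays against SD among the 3 control arrays for every gene tested, both in log2 units on log axes; crosses are genes in rows with extra digits and labelled points are the measured phosphatases. Inpp5a lies at 0.011 on the vertical and 0.21 on the horizontal axis, low among genes of like control spread, and Inpp5d lies at 0.42 and 0.058.

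The 3 genes whose values over the 6 arrays were most alike to Inpp5a were Fabp3, Dnmt3b and Pdpk1, with Pearson correlations of 0.995, 0.994 and 0.993. All 3 lie in rows with extra digits, with 3, 3 and 4 such values. Fabp3 encodes a fatty acid binding protein and Dnmt3b a de novo DNA methyltransferase; both were listed higher in the chromium restriction group, by 1.11 and 1.58 log2 units. Correlations over 6 arrays that differ by group mainly restate the group difference. They are given as a description.

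Inpp5k encodes SKIP, a 5-phosphatase of the endoplasmic reticulum known to restrain insulin signalling in muscle. Its values were 8.51, 8.62 and 8.79 in chromium restriction replicates 1, 2 and 3. In control replicates 1, 2 and 3 it was at 9.08, 8.86 and 9.09. Every chromium restriction array was thus below every control, but the gap between the groups was only 0.064 log2 units. The log2 difference was -0.37 ± 0.11 (SE, n = 3), with a 95% interval of -0.63 to -0.11 before adjustment and an adjusted p of 0.746 in limma, so Inpp5k did not pass; 6.06% of all genes were lower without overlap.

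The difference of Inpp5k was also read with the chromium restriction arrays split by their liver transcripts. With only chromium restriction replicate 2 it was -0.39, from 1 array against 3. Without that array it was -0.36. Both values use the same 3 controls. On replicate 2 the mean of the 7 liver genes was 6.55, against 6.56 to 6.94 in the controls. Of these genes only Apoa1 was above every control there, at 7.44 against 5.50 to 6.27. Control replicates 1 and 3, which held brown fat transcripts, had the highest Inpp5k values; control replicate 2, where the brown fat genes were at 5.75, was nearest to the chromium restriction arrays. The mean of the adipocyte markers was also lower on all 3 chromium restriction arrays. With the mean of the liver genes as a covariate the Inpp5k difference was -0.38 ± 0.16 (SE, n = 3). The part of liver transcripts in the difference was not tested beyond these values, and that of brown fat or adipocyte transcripts was not tested. The genes most alike to Inpp5k over the 6 arrays were Fam53a (Pearson r = 0.992), Bckdha (0.987), which encodes a subunit of the branched-chain keto acid dehydrogenase of mitochondria, and Tsfm (0.984), which encodes a mitochondrial translation elongation factor.

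Inppl1 encodes SHIP2, the widely expressed PIP3 phosphatase known to dampen insulin signalling. Its values were 6.98, 6.88 and 7.05 in chromium restriction replicates 1, 2 and 3. In control replicates 1, 2 and 3 it was at 7.05, 7.04 and 7.46. The groups overlapped, and control replicate 3 alone stood above the rest. The log2 difference was -0.21 ± 0.13 (SE, n = 3), with a 95% interval of -0.53 to 0.11 and an adjusted p of 0.903 in limma. Without control replicate 3 it was -0.077. The genes most alike to it were Slc27a6, Gm14164 and Dnajc30, with Pearson correlations of 0.989, 0.984 and 0.982 over the 6 arrays.

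Inpp5d, Inpp4a and Inpp4b were high together on chromium restriction replicate 2. Inpp5d encodes SHIP1, the PIP3 phosphatase of blood cells, which restrains signalling from antigen, Fc and cytokine receptors. Its values were 6.70, 7.35 and 6.58 in chromium restriction replicates 1, 2 and 3. In control replicates 1, 2 and 3 it was at 6.67, 6.56 and 6.65. Replicate 2 alone stood apart, 0.66 log2 units above the next array, while the other 5 arrays had an SD of 0.059. The groups overlapped, and the log2 difference was 0.25 ± 0.20 (SE, n = 3), with a 95% interval of -0.25 to 0.74 and an adjusted p of 0.954 in limma. Without that array it was 0.010.

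Inpp4a encodes a 4-phosphatase that acts on the bisphosphate made by SHIP enzymes, found on endosomes. Its values were 7.56, 7.97 and 7.42 in chromium restriction replicates 1, 2 and 3. In control replicates 1, 2 and 3 it was at 7.75, 7.53 and 7.48. Replicate 2 of the chromium restriction group was again the highest, 0.23 above the next array, and the other arrays of both groups were intermixed. The log2 difference was 0.064 ± 0.16 (SE, n = 3), with a 95% interval of -0.32 to 0.45 and an adjusted p of 0.994 in limma. It turned to -0.098 without that array.

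Inpp4b encodes the paralogous 4-phosphatase, known as a tumour suppressor of epithelial cells that limits Akt signalling. Its values were 6.27, 7.08 and 6.35 in chromium restriction replicates 1, 2 and 3. In control replicates 1, 2 and 3 it was at 6.52, 6.27 and 6.03. Replicate 2 was the highest by 0.56 log2 units, and the remaining arrays of both groups overlapped. The log2 difference was 0.29 ± 0.24 (SE, n = 3), with a 95% interval of -0.30 to 0.88 and an adjusted p of 0.958 in limma. Without replicate 2 it was 0.036.

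**Figure D3:**
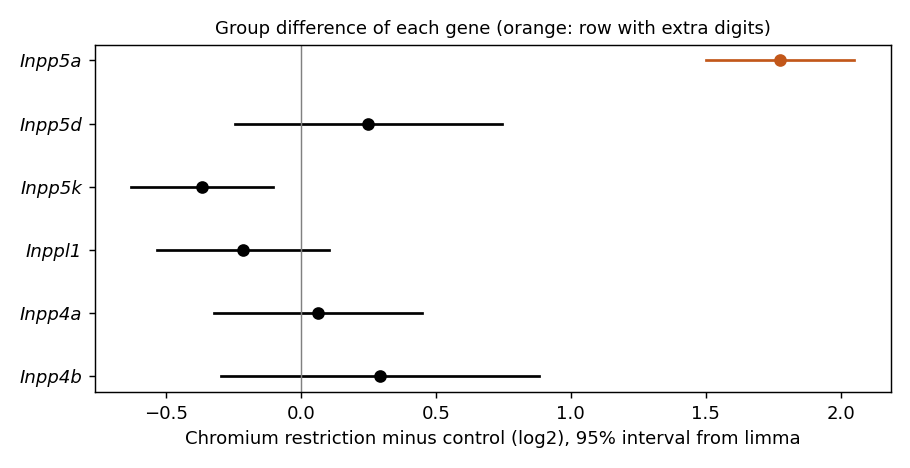
Chromium restriction minus control for each measured gene in log2 units, with the 95% interval from limma (n = 3 per group, before adjustment); the row with extra digits is in orange. Inpp5a is at 1.78 with an interval of 1.5 to 2.05, Inpp5k is at -0.37, and the intervals of the other 4 genes include 0.

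Chromium restriction replicate 2 held the highest value of 3 of the 6 genes, Inpp5d, Inpp4a and Inpp4b, and of 12.9% of all genes. These 3 genes were above every other array by at least 0.2 log2 units on chromium restriction replicate 2, a margin chosen after their values were seen. Of all genes 2.77% were (614 of 22180). Across the 6 arrays the Pearson correlation was 0.88 between Inpp5d and Inpp4a, 0.89 between Inpp5d and Inpp4b, and 0.91 between Inpp4a and Inpp4b; it is a description that rests largely on that array. Inppl1 and Inpp5k were not high there: Inppl1 had its lowest value on it.

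Leukocyte transcripts were highest on the same array. The mean of 12 leukocyte markers was 8.38 in chromium restriction replicate 2, 7.93 and 7.46 in replicates 1 and 3, and 7.46, 7.77 and 7.66 in control replicates 1, 2 and 3. Of the 12 markers 7 had their highest value there. Ptprc, which encodes the pan-leukocyte antigen CD45, was at 9.57 there and at 7.98 to 8.20 elsewhere. Chosen after their values were seen, Cd3e of T cells was at 7.76 against 5.92 to 6.61 and Ms4a1 of B cells at 7.87 against 5.41 to 6.52. Lyz2, Csf1r and Cd68, known from macrophages, were instead highest in replicate 1, at 11.60, 9.71 and 9.88. The mean of the 7 intestinal genes was also highest in replicate 2, where 5 of the 7 had their highest value. The part of either group of transcripts in the values of Inpp5d, Inpp4a and Inpp4b was not tested.

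**Figure D4:**
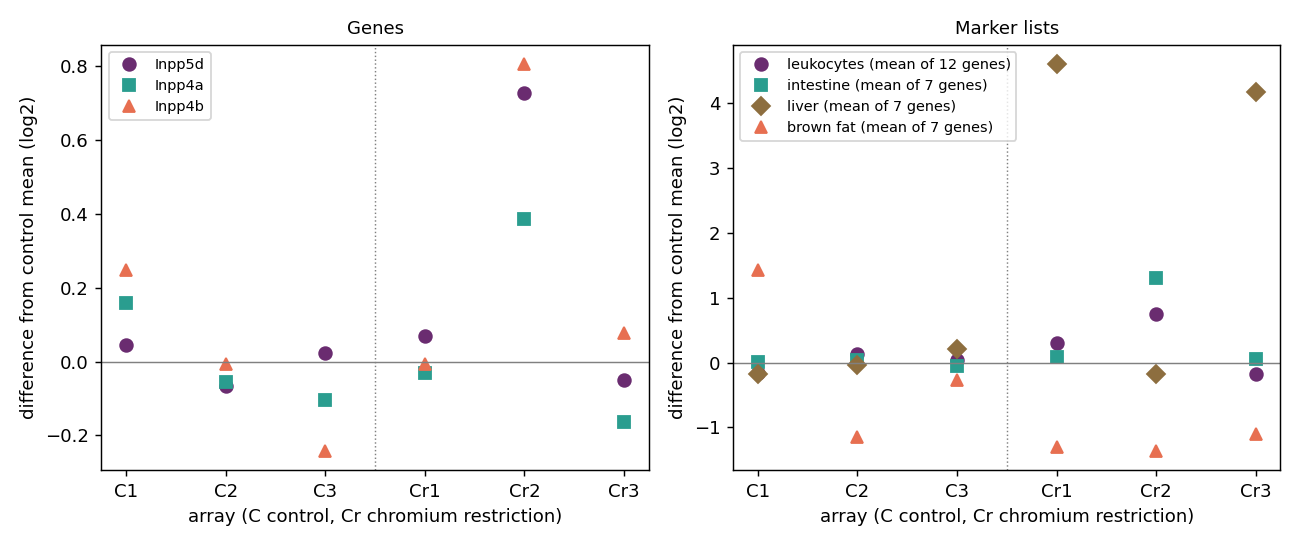
Difference from the control mean, in log2 units, on each array (C control, Cr chromium restriction, numbered by replicate), for Inpp5d, Inpp4a and Inpp4b on the left and for the mean of each marker list on the right. Replicate 2 of the chromium restriction group is the highest array for the 3 genes, for the leukocyte mean (8.38) and for the intestinal mean (6.55), while the liver mean is highest in replicates 1 and 3.

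The genes most alike to these 3 over the arrays are given as a description, and their correlations rest largely on chromium restriction replicate 2. For Inpp5d they were Ptprc (Pearson r = 0.992), the interleukin 7 receptor gene Il7r (0.990) and 2010106E10Rik (0.989). For Inpp4a they were Taf5 (0.990), the natural killer cell receptor gene Klrd1 (0.983) and the lymphocyte GTPase gene Gimap8 (0.982). For Inpp4b they were the progenitor and dendritic cell receptor gene Flt3 (0.984), the interleukin 2 receptor subunit gene Il2rb (0.978) and Ap1s3 (0.976).

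The promoter windows of Inpp5d and Inpp4a are shown because these genes were high on the same array, and that of Inpp5a because it was the gene listed apart from the rest. Each is the 250 bases before the most upstream start site in RefSeq (GRCm38.p6), 5′ to 3′ on the gene's strand, with matches in capitals. Motifs were searched on both strands: GGAAGT, the core bound by ETS factors such as PU.1 of blood cells; GGGCGG, the GC box; TGACGTCA, the cyclic AMP response element; and TATAAA, the TATA box. No matches overlapped. Inpp5d lies at chr1:87620062-87620311, Inpp4a at chr1:37299588-37299837 and Inpp5a at chr7:139388859-139389108, all on the + strand.
Inpp5d: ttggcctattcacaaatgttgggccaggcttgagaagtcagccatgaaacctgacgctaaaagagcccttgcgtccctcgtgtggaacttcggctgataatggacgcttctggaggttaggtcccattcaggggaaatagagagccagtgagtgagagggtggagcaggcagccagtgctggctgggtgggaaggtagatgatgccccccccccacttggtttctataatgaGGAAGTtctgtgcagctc
Inpp4a: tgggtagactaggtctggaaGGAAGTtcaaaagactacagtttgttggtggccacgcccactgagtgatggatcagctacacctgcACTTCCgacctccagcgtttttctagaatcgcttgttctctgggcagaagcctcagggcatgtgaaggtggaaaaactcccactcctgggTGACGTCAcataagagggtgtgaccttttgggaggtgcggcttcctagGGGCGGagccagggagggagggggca
Inpp5a: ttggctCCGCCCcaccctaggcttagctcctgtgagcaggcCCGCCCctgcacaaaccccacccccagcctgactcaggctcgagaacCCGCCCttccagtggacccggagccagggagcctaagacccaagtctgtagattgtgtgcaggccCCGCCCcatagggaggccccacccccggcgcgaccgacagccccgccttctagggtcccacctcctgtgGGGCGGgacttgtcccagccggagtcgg

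In the Inpp5d window the capitals mark 1 ETS core, 18 bases before the start. The Inpp4a window held 2 ETS cores, 1 GC box and 1 cyclic AMP response element, and the Inpp5a window held 5 GC boxes and no ETS core. Of 32851 windows of the same length in the table, 19.7% held the ETS core, 32.7% the GC box, 1.55% the cyclic AMP response element and 12.4% the TATA box. In the Inpp4b window (chr8:81342312-81342561, + strand) none of the 4 motifs was found. The G and C content was 54.4% for Inpp5d, 55.6% for Inpp4a, 66% for Inpp4b and 69.2% for Inpp5a, against a median of 52.4% over all windows. These matches describe letters in a window and were not tested against expression.

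The rest of the inositol pathway was read from 12 lists that hold 93 genes, of which 84 had a probe set of their own. In limma 1 of the 84 passed as higher, against 0.0902% of all genes in that direction, and 0 as lower, against 0.104%; 3 had an unadjusted p under 0.05, against 5.95% of all genes. Of the 84 genes 29 had a positive and 55 a negative difference, with a median of -0.040 log2 units, where 9576 of all genes were positive and 12604 negative. The 1 that passed was Pdpk1, the kinase that phosphorylates Akt at PIP3-rich membrane. It lies in a row with extra digits and was listed at 10.88, 10.77 and 10.88 in chromium restriction replicates 1, 2 and 3 and at 8.62, 8.70 and 8.66 in the controls, a difference of 2.18 ± 0.070 (SE, n = 3, adjusted p = 0.000459 in limma).

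Among the kinases that make PIP3, 4 of 9 class I subunit genes had a positive and 5 a negative difference, and 0 passed; 1 had an unadjusted p under 0.05. That gene was Pik3r1, which encodes the p85 alpha regulatory subunit that links the kinase to insulin receptor substrates. Its values were 9.73, 10.04 and 9.87 in chromium restriction replicates 1, 2 and 3 and at 10.58, 10.63 and 10.33 in the controls. The groups did not overlap, and the log2 difference was -0.63 ± 0.12 (SE, n = 3) with an adjusted p of 0.402 in limma. Pik3cb, a catalytic subunit gene, differed by -0.55 ± 0.23 (SE, n = 3) and overlapped between groups.

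Of 9 measured PIP3 effector genes 1 passed, Pdpk1, and 2 had an unadjusted p under 0.05. The other was Akt2, the Akt form known for insulin-stimulated glucose uptake in fat. Its values were 8.71, 9.19 and 9.08 in chromium restriction replicates 1, 2 and 3 and at 9.32, 9.41 and 9.57 in the controls. All 3 chromium restriction values were below the controls, with a log2 difference of -0.44 ± 0.14 (SE, n = 3) and an adjusted p of 0.771 in limma. Pdpk1 and Akt2, which act in sequence, were thus listed on opposite sides of the controls. The adipocyte marker mean was lower on the same 3 arrays as Pik3r1 and Akt2, and its part in their values was not tested.

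The other phosphatases gave no calls in limma, and 0 of them had an unadjusted p under 0.05. Of 7 other 5-phosphatase and SAC domain genes 3 had a positive and 4 a negative difference; Synj1, which encodes synaptojanin, an enzyme of vesicle uncoating, differed by 0.18 ± 0.080 (SE, n = 3) without overlap. All 9 measured genes on the list of 3-phosphatases, among them those of the myotubularin family, had negative differences, from -0.38 to -0.12 with a median of -0.19. Mtmr3 and Mtmr14 of this family, which act on 3-phosphorylated lipids, differed by -0.31 ± 0.16 and -0.31 ± 0.14 (SE, n = 3). Of 5 measured enzymes for soluble inositol phosphates 4 were negative and 1 positive, with Inpp1, which acts on inositol bisphosphates, at -0.22 ± 0.14 (SE, n = 3).

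Genes that make or sense the substrate of Inpp5a also gave no calls, with 0 at an unadjusted p under 0.05. Of 11 measured phospholipase C genes, whose products release inositol trisphosphate from the membrane, 5 had a positive and 6 a negative difference. Plcb2, a form known from blood cells, had values of 6.41, 6.65 and 6.10 in chromium restriction replicates 1, 2 and 3 and at 5.96, 6.11 and 6.04 in the controls. Its highest value was thus also on replicate 2, and the log2 difference was 0.35 ± 0.15 (SE, n = 3, adjusted p = 0.817 in limma). Plcb1 and Plcg1 of the same list had negative differences, -0.39 ± 0.18 and -0.22 ± 0.11 (SE, n = 3). The trisphosphate receptor genes Itpr2 and Itpr3 differed by 0.096 ± 0.12 and -0.12 ± 0.21 (SE, n = 3). Of 11 inositol phosphate kinase genes 7 were positive and 4 negative. Itpkb, which phosphorylates the same trisphosphate, differed by 0.23 ± 0.12 (SE, n = 3, adjusted p = 0.845 in limma). Ppip5k1 of the same list differed by -0.33 ± 0.16 (SE, n = 3).

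The remaining lists again gave no calls in limma and 0 genes at an unadjusted p under 0.05. The medians were -0.047 for 10 measured kinases of phosphatidylinositol and its monophosphates, -0.040 for 5 class II and III 3-kinase genes and -0.21 for 2 4-phosphatase genes of the TMEM55 type. Pikfyve, the kinase that makes an endosomal bisphosphate lipid, differed by -0.37 ± 0.17 (SE, n = 3). Of 4 genes of inositol synthesis and transport 2 were positive and 2 negative. Slc2a13, which encodes an inositol transporter, differed by -0.39 ± 0.23 (SE, n = 3) with overlapping groups. Cdipt, which encodes phosphatidylinositol synthase, differed by 0.096 ± 0.14 (SE, n = 3).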

How the data were processed

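The 1 value table used here holds 33793 probe sets on 6 arrays, 3 per group. The deposited values were taken as log2 from their range of 3.49 to 14.86. The sources used here give no log base, summarisation or normalization, and depth does not apply to arrays, whose number limits the precision. Gene symbols came from the platform's annotation table: 23521 had 1 symbol, 1814 several and 8458 none, and only the first were used. For each of 22180 genes the brightest probe set entered a linear model (limma 3.58.1, lmFit and eBayes, in R 4.3.3), with no further normalization or filter, with two-sided p-values adjusted over all genes by Benjamini-Hochberg and calls at 0.05. A value was said to have extra digits where it had more decimals than identify a single-precision number; 183 values in 64 probe sets had. The fit was tested on simulated data.

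The family, the pathway and marker lists and the alternatives were chosen with earlier results of these data known. The rule for named genes took all measured members; from each pathway list the genes past the adjusted threshold, up to 2 with the smallest p and the brightest; up to 3 of the brightest markers; and the 3 genes with the highest Pearson r to each member. The examples in the text come from these, except where said to be chosen after their values were seen. Further exceptions are the adipocyte markers, which are all named, and Apoa1 of the liver genes, named after its values were seen. A planned motif search in proteins was not run. Promoter windows came from a RefSeq table (GRCm38.p6); the arrays name no build, so no gene coordinates are given. Alternatives changed the normalization, filter, variance model, probe set rule, replicate block, arrays, extra digits and liver transcripts. With an exact permutation test, 3 arrays against 3 cannot go below p = 0.1. Same-numbered arrays did not deviate together (correlations over genes of -0.12, -0.095 and 0.078), so the numbers were not taken as pairs.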

Additional observations from a re-analysis of the deposited data

How the results depend on the processing

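Inpp5a kept its direction under all 16 alternatives that could give it a value, at 1.66 to 1.85 log2 units, and was called under 14 of them. All 16 used its chromium restriction values with extra digits, so these counts cannot test those values. Leaving out each array in turn gave 1 called member each time. With the replicate block 0 members and 0 genes were called in limma (1337 genes at an unadjusted p under 0.05; Inpp5a adjusted p = 0.117). With chromium restriction replicates 1 and 3 both left out 0 members and 6 genes were called (927 genes at an unadjusted p under 0.05). When rows with extra digits were left out, or their 183 values set to missing, 0 genes and 0 members were called in limma (1265 and 1283 genes at an unadjusted p under 0.05), and Inpp5a had no value, since all 3 of its chromium restriction values were removed. Over all genes 43 were called, and 24 to 439 when 1 array was left out: 439 without chromium restriction replicate 2, and 24 each without chromium restriction replicate 3 or control replicate 1, 2 or 3. The cause of these shifts was not tested. The sign of Inpp4a turned with array weights (-0.037) and without chromium restriction replicate 2 (-0.098); leaving out 1 array gave -0.098 to 0.18 in all. With the liver genes as a covariate Inpp5d and Inpp4b differed by 0.69 and 0.79 (adjusted p = 0.236 and 0.418 in limma), values that rest mostly on replicate 2. Inpp5d, Inpp5k, Inppl1 and Inpp4b kept their sign under all 18 alternatives and were called under none. Several alternatives, such as those of the variance model, filter, probe set rule and block, leave a member's difference as it was. The counts of kept signs, also that of Inpp5a, therefore overstate how far the sign was tested. Without chromium restriction replicate 2 Inpp5d and Inpp4b differed by only 0.010 and 0.036.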
